A study of Mus musculus with 2 samples.

Results

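The 10 genes described here encode the cytokine tumour necrosis factor (Tnf), its receptors (Tnfrsf1a and Tnfrsf1b), subunits of the transcription factor NF-κB (Nfkb1, Rela and Relb) and proteins that restrain or shape the signal (Nfkbia, Tnfaip3, Traf1 and Birc3). They were chosen by symbol from the 33696 genes in the deposited feature tables, and all 10 were detected. Their unique molecular identifiers (UMIs, each marking 1 captured transcript) were counted by droplet-based sequencing of transcript 3′ ends in single cells.

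The cells came from full-thickness skin wounds of 10 mm made on the back of male wild type mice of the inbred C57BL/6 strain, and were collected at day 6. The young library came from mice aged 2 months and the aged library from mice aged 24 months, and each was a pool of several animals. All cells of the digested wound were loaded, with no sort. There was 1 library per age and no replicate, so the ages could not be tested against each other, and an effect of age cannot be told apart from one of the animals pooled or of how each library was made. Every interval given is a 95% interval that covers counting error only.

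TNF is made by activated myeloid and lymphoid cells and is an early signal of inflammation in wounded skin. It binds Tnfrsf1a, a receptor found on most cell types, and Tnfrsf1b, which is found mainly on leukocytes and endothelium. Receptor binding leads to degradation of IκBα, the product of Nfkbia, which otherwise holds NF-κB dimers in the cytoplasm. NF-κB then enters the nucleus and induces, among many genes, its own inhibitors Nfkbia and Tnfaip3, which close a negative feedback loop.

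Promoter windows from RefSeq (build GRCm38.p6, 250 bases before to 50 after each transcription start) were matched by symbol for 8 of the 10 genes, with none for Nfkb1 and Relb. The κB consensus, the 10-base binding motif of NF-κB, was searched on both strands. It was found in 2 of the 8 genes, Nfkbia and Tnfaip3, and in 4.51% of all 32851 windows. The 8 genes had 9 windows, so a count of genes stands here beside a share of windows. Tnfaip3 had a second window, at chr10:19011914-19012213, which held no match and is not shown. The 250 bases before the start of these 2 feedback inhibitors are shown with the matches in capitals, beside the same stretch of Tnf, which held no match. They lie at chr12:55492648-55492897 (Nfkbia), chr10:19015411-19015660 (Tnfaip3) and chr17:35202008-35202257 (Tnf), all on the minus strand.
Nfkbia: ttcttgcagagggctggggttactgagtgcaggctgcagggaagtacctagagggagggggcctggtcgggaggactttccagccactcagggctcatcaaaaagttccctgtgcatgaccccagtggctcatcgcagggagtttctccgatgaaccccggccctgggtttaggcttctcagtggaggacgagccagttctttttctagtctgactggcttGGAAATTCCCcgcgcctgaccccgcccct
Tnfaip3: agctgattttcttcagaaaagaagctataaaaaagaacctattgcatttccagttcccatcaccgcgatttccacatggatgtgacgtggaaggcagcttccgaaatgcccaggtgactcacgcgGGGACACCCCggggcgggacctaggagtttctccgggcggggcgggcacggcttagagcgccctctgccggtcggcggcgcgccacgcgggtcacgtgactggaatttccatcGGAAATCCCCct
Tnf: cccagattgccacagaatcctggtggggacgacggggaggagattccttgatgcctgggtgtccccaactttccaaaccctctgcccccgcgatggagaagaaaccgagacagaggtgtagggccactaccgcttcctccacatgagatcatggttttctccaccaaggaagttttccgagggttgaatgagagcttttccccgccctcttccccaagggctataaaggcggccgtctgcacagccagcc
The Nfkbia match, GGAAATTCCC, began 29 bases before the start. The Tnfaip3 matches, GGGACACCCC and GGAAATCCCC, began 125 and 12 bases before it. A match is a match of letters and not evidence of binding.

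The young library held 111810068 UMIs in 4932 barcodes and the aged library 107865898 in 4379, and 4661 and 4210 cells were kept, with 3 barcode sequences shared by the libraries. Cells were gated into classes by marker genes, and 5 classes with at least 40 cells in each library are described. These were neutrophils (1407 young and 976 aged cells, median depth 5618 and 4335 UMIs), macrophages and monocytes (846 and 1225), T and NK cells (332 and 45), fibroblasts (1573 and 1475) and blood endothelial cells (58 and 50). All markers of its own list were detected in each class in both libraries. A class cut from a score is a range, and between 9 (T/NK and endothelial) and 78 (macrophage/monocyte) young cells and between 3 and 69 aged cells lay near the cut. No class was given to 6.95% of young and 8.91% of aged cells. Levels are a gene's UMIs in a class scaled to a common total of all the class's UMIs (CPM), so a level is a share of the class's transcripts, and fewer transcripts per cell cannot be told apart from more of other genes.

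Over all cells, Tnf and Traf1 were lower in the aged library, and the other 8 genes differed by less than 1.5-fold. Tnf stood at 339 CPM (young, 37774 UMIs) and 104 CPM (aged, 11193 UMIs), an aged/young ratio of 0.306 (0.3001 to 0.313). Traf1, an adaptor that binds Tnfrsf1b and is itself induced by NF-κB, was at 146 and 69.9 CPM, a ratio of 0.479 (0.466 to 0.492). Nfkbia followed at 2611 and 1921 CPM (ratio 0.736, 0.732 to 0.740) and Tnfrsf1b at 192 and 151 CPM (ratio 0.786, 0.770 to 0.802). The ratios of Birc3 (0.926), Tnfaip3 (0.956), Rela (0.999), Tnfrsf1a (1.06), Relb (1.08) and Nfkb1 (1.08) were nearer to 1.

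The count of 2 genes lower and 0 higher by 1.5-fold or more stood beside 8.73% of the 17799 genes tested lower and 8.96% higher. The median log2 ratio was -0.09 for the 10 genes and 0.12 for all genes tested. Scaling the libraries by edgeR's trimmed mean of M-values (TMM) moved the median of all genes by -0.11 on the log2 scale over all cells, by -0.27 in neutrophils, by -0.19 in macrophages and monocytes and by -0.21 in T/NK cells. With that scaling 6.33% of all genes were higher and 10.9% lower over all cells. The direction of a ratio near 1 therefore depends on the scaling. Over the alternatives run, the ratios of Tnfrsf1a, Tnfrsf1b, Rela and Relb over all cells lay on both sides of 1, from 0.979, 0.727, 0.925 and 0.996 to 1.06, 1.003, 1.03 and 1.08.

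**Figure D1:**
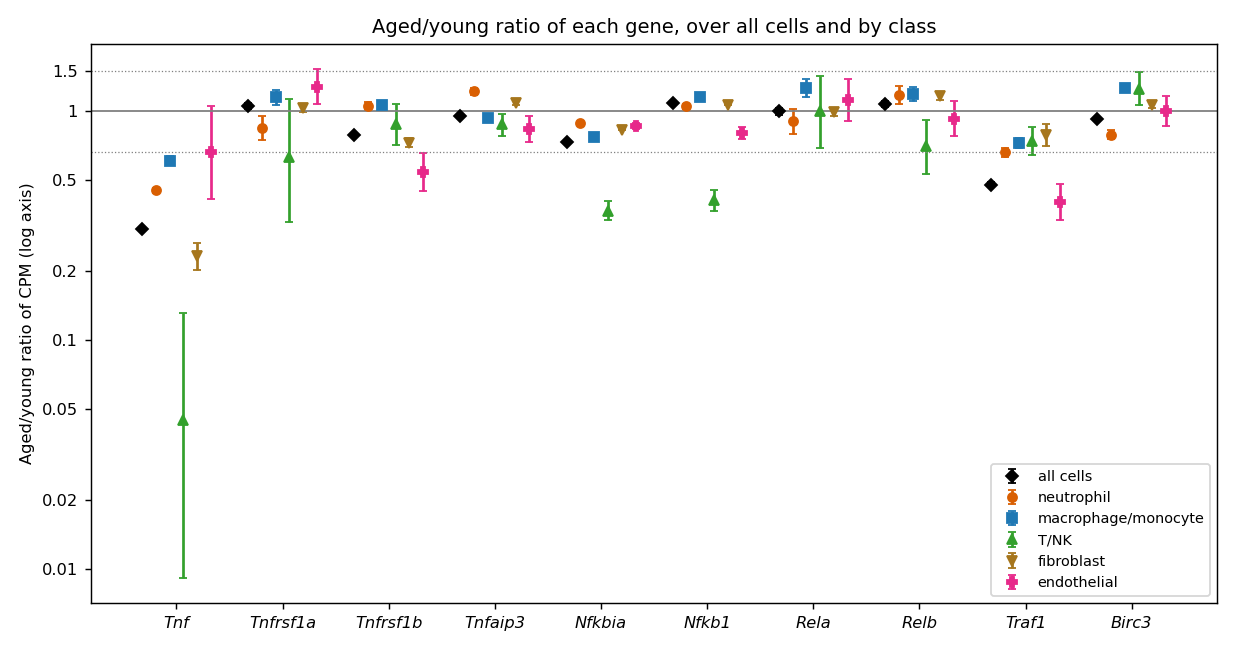
Aged/young ratio of CPM (log axis) of the 10 genes over all cells and in 5 cell classes, with counting intervals (95%) and dotted lines at 1.5-fold. Tnf lies at or below 0.664 in every scope shown, while Rela lies between 0.906 and 1.26.

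Neutrophils, the first leukocytes to enter a wound, held most of the Tnf. They gave 72.3% of the young library's Tnf UMIs and 50.9% of the aged library's, from 10.0% and 4.79% of all UMIs. Macrophages and monocytes gave 14.3% and 33.4%, and cells with no class 9.23% and 12.6%. Young neutrophils had 2447 CPM of Tnf and aged neutrophils 1105 CPM, a ratio of 0.451 (0.439 to 0.464). In macrophages and monocytes it was 344 and 210 CPM, a ratio of 0.609 (0.584 to 0.636). Cells with no class had 616 and 400 CPM, a ratio of 0.649 (0.610 to 0.691). The order of the classes by Tnf level was neutrophil, then macrophage/monocyte, then the other 3. The ranges of the first 2 classes over the libraries did not overlap each other or the rest, while T/NK cells overlapped endothelial cells and these overlapped fibroblasts.

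**Figure D2:**
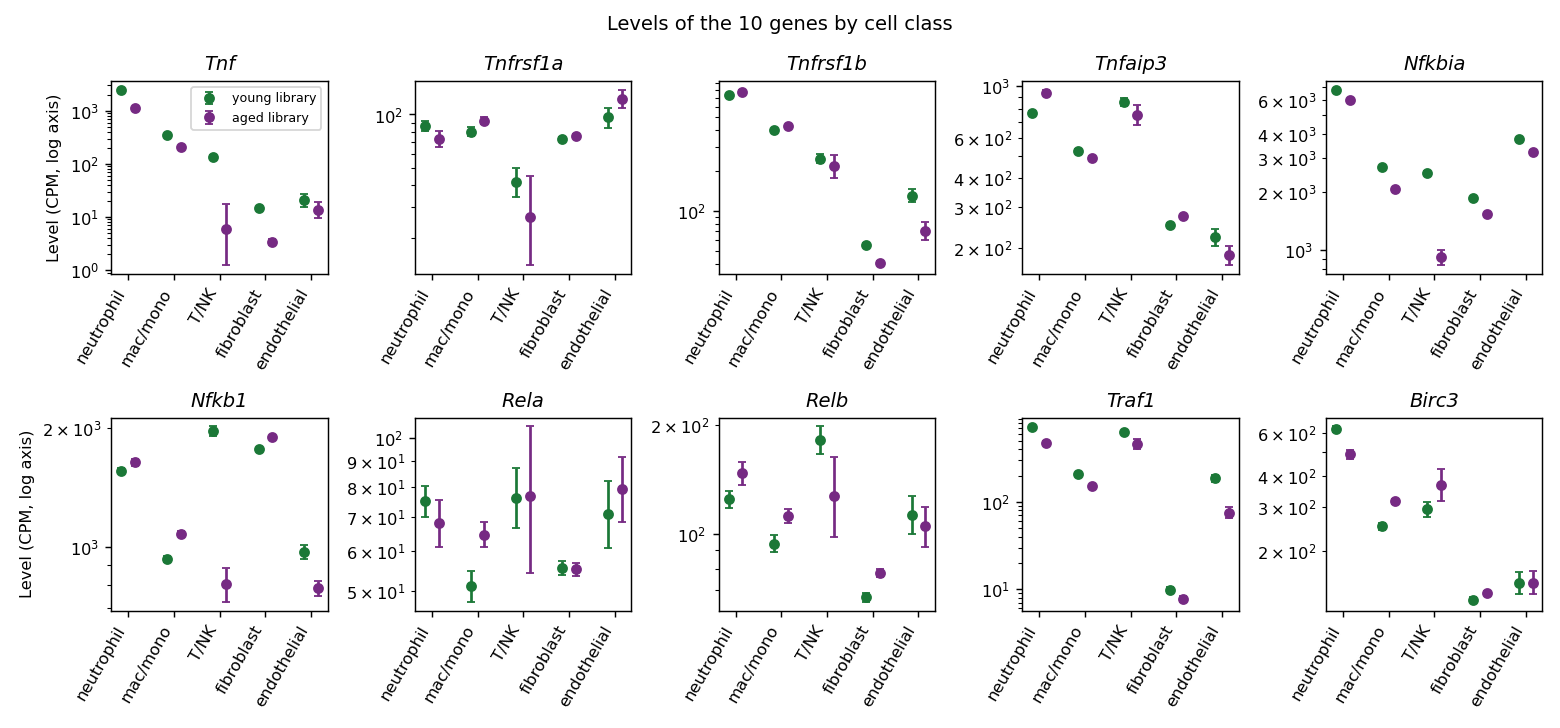
Level of each gene (CPM, log axis, a separate scale per panel) in 5 cell classes of the young and aged libraries, with exact Poisson intervals (95%). Tnf is highest in neutrophils, at 2447 and 1105 CPM, while Nfkb1 is highest in T/NK cells of the young library (1965 CPM) and fibroblasts of the aged one (1898 CPM).

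The spread of Tnf among neutrophils was wide. The median young neutrophil had 9 Tnf UMIs per 10000 and the 90th percentile had 71.5, against 1.9 and 28.4 in aged neutrophils. The 146 highest of the 1407 young neutrophils held 50% of the class's Tnf UMIs, as did the 52 highest of the 976 aged ones. To compare shares of cells, 2000 UMIs were drawn from each cell, and 236 young and 291 aged cells of all classes were too shallow for this. A Tnf UMI was then found in 872 of 1317 young neutrophils, or 66.2% (63.6 to 68.8), and in 391 of 890 aged ones, or 43.9% (40.6 to 47.3). Before thinning the shares were 75.4% and 55%. Among macrophages and monocytes the thinned shares were 32.2% (29.0 to 35.5) and 19.5% (17.2 to 21.8), and 64.4% and 46.6% before thinning. Among T/NK cells 41 of 328 young cells, or 12.5%, and 0 of 44 aged cells had a Tnf UMI, and 3 counts of the 44, the limit that a count of 0 allows, are 6.82%. Before thinning the T/NK shares were 26.8% and 6.67%. In fibroblasts, taken as cells that should lack Tnf, the thinned shares were 2.28% and 0.486%, and 12.7% and 5.76% before thinning at much greater median depths of 41948 and 49794 UMIs.

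The lower class level and the smaller neutrophil share both entered the difference over all cells. With each class at its own library's level and the young library's class shares of UMIs, the Tnf ratio was 0.494, against 0.306 as observed. With the aged library's shares it was 0.511. The same arithmetic took Traf1 from 0.479 to 0.757, Nfkbia from 0.736 to 0.828 and Tnfrsf1b from 0.786 to 0.995 at young shares. The other 6 genes lay between 1.02 and 1.15 at young shares.

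**Figure D3:**
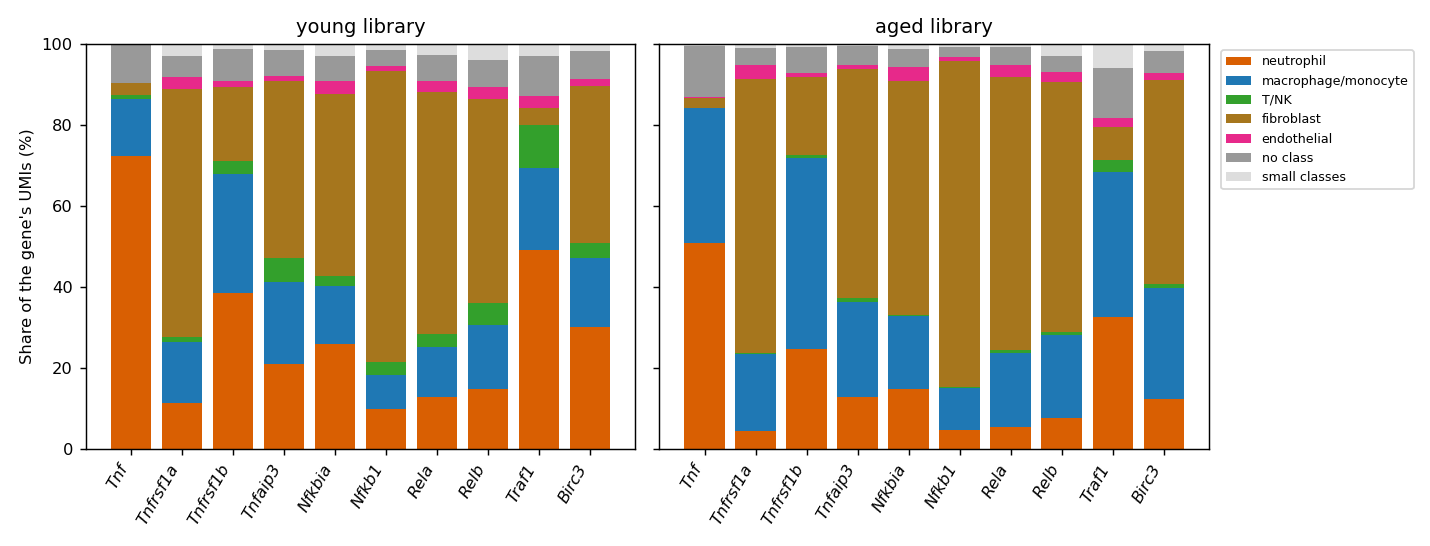
Share (%) of each gene's UMIs held by each cell class, in the young (left) and aged (right) library. Neutrophils hold 72.3% of young and 50.9% of aged Tnf UMIs, while fibroblasts hold 71.8% and 80.4% of the Nfkb1 UMIs.

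In the other classes Tnf rested on few cells. Fibroblasts had 14.7 and 3.44 CPM, on 1036 and 265 UMIs, a ratio of 0.233 (0.203 to 0.267), and 8 of 1573 young and 4 of 1475 aged cells held 50% of these. The ratio was 0.470 without the cells of highest doublet score. The fibroblast Tnf level was 0.602% and 0.311% of the neutrophil level, and that of S100a8, a neutrophil marker, was 0.271% and 0.124%. Of the other neutrophil markers, S100a9 was at 0.241% and 0.0987% and Hdc at 0.306% and 0.187%. Retnlg was at 0.188% and 0.165%, Csf3r at 0.332% and 0.296%, Cxcr2 at 0.176% and 0.151% and G0s2 at 0.289% and 0.275%. Mxd1 was at 1.32% and 1.05%, while Il1r2 went the other way, at 1.61% and 1.93%. T/NK cells had 375 young UMIs and 3 aged UMIs, or 135 and 6.06 CPM, a ratio of 0.0449 (0.00921 to 0.132), and 4 of the 332 young cells held 50% of them. That ratio was 0.0962 without the cells of highest doublet score and 0.0291 with classes taken from clusters. Without the 10 cells of each library with the most UMIs of the gene, no aged UMI was left. S100a8 in T/NK cells had 230 and 9 UMIs, a ratio of 0.220, while S100a9 was at 0.115 and Il1r2 at 0.523. Endothelial Tnf was at 20.8 and 13.8 CPM, on 51 and 32 UMIs, with a ratio of 0.664 whose interval (0.413 to 1.05) included 1. The part of neutrophil RNA and doublets in these low levels was not tested.

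Of the receptors, Tnfrsf1a, the death-domain receptor, was at similar levels in 3 of the 5 classes. It lay between 72.6 and 92.2 CPM in neutrophils, macrophages and monocytes, and fibroblasts of both libraries. Endothelial cells had the most, at 96.2 and 123 CPM, and T/NK cells the least, at 41.4 and 26.2 CPM. The endothelial ratio was 1.28 (1.07 to 1.53) and the neutrophil ratio 0.847 (0.749 to 0.955). The T/NK ratio of 0.634 rested on 115 and 13 UMIs and its interval (0.328 to 1.13) included 1.

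Tnfrsf1b, the receptor that recruits Traf2 and Traf1, was graded by class. It ran from 738 and 780 CPM in neutrophils through 402 and 431 CPM in macrophages and monocytes and 245 and 216 CPM in T/NK cells to 130 and 70.7 CPM in endothelial cells. Fibroblasts had 55.6 and 40.6 CPM. No neighbouring classes in this order overlapped over the libraries. The neutrophil ratio of 1.06 and the macrophage/monocyte ratio of 1.07 turned to as low as 0.875 and 0.925 over the alternatives run. The endothelial ratio was 0.544 (0.448 to 0.659) and the fibroblast ratio 0.730 (0.696 to 0.765).

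Tnfrsf1b gave 89.6% of the UMIs of both receptors in young neutrophils and 91.5% in aged ones. The share was 83.4% and 82.4% in macrophages and monocytes. In fibroblasts it was 43.3% (42.3 to 44.3) and 35% (34.0 to 36.0), and in endothelial cells 57.5% (53.2 to 61.6) and 36.5% (32.1 to 41.2). These are shares of UMI counts of different genes, so only the difference within a class is read here.

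Nfkbia was the most abundant of the inhibitors by UMIs and was at lower CPM in the aged library in all 5 classes. Neutrophils had 6731 and 5982 CPM, with a ratio of 0.889 (0.877 to 0.901). Endothelial cells had 3754 and 3241 CPM, macrophages and monocytes 2694 and 2081 CPM, and fibroblasts 1858 and 1546 CPM, with ratios of 0.863, 0.773 and 0.832. The T/NK ratio was 0.368 (0.334 to 0.404), at 2503 and 921 CPM. Over the alternatives run, the highest Nfkbia ratio in any of the 5 classes was 0.963, in neutrophils.

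Tnfaip3, which encodes the ubiquitin-editing enzyme A20, did not follow Nfkbia. Young neutrophils had 766 CPM and aged ones 939 CPM, a ratio of 1.23 (1.18 to 1.27). The neutrophil ratio lay between 1.02 and 1.32 over the alternatives. Thinned shares of neutrophils with a Tnfaip3 UMI went the other way, at 61.9% and 57.6%, so no order is read from them. The ratio was 1.09 in fibroblasts (251 and 274 CPM), 0.935 in macrophages and monocytes (523 and 489 CPM), 0.877 in T/NK cells (859 and 753 CPM) and 0.836 in endothelial cells (221 and 185 CPM). None of these reached 1.5-fold.

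Traf1 was concentrated in leukocytes, with 717 and 475 CPM in neutrophils and 628 and 466 CPM in T/NK cells. Macrophages and monocytes had 208 and 151 CPM, endothelial cells 187 and 75.5 CPM and fibroblasts 9.82 and 7.77 CPM. The ratio was under 1 in all 5 classes, although the fibroblast one was 1.09 without the cells of highest doublet score. The ratios were 0.663 (0.634 to 0.694) in neutrophils, 0.727 (0.691 to 0.766) in macrophages and monocytes, 0.742 (0.644 to 0.852) in T/NK cells, 0.791 (0.708 to 0.884) in fibroblasts and 0.403 (0.336 to 0.480) in endothelial cells. Dendritic cells, of which only 19 young and 38 aged were gated, had 1191 and 757 CPM of Traf1, above every class described. They also had 432 and 389 CPM of Relb.

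Birc3, an inhibitor of apoptosis that joins the TNF receptor complex, was highest in neutrophils, at 621 and 490 CPM, a ratio of 0.790 (0.754 to 0.827). It was at 251 and 317 CPM in macrophages and monocytes, a ratio of 1.26 (1.21 to 1.31). T/NK cells also had a ratio of 1.26 (1.07 to 1.48), which was 0.657 without the 10 highest cells. Fibroblasts and endothelial cells had ratios of 1.06 and 1.003.

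Among the subunits, Nfkb1, whose product p105 is processed to p50, was highest in fibroblasts (1773 and 1898 CPM) when both libraries are considered. Neutrophils had 1557 and 1639 CPM, and macrophages and monocytes 933 and 1079 CPM, with ratios of 1.05 and 1.16, which were as low as 0.871 and 0.9998 over the alternatives. Young T/NK cells had 1965 CPM and aged ones 804 CPM, a ratio of 0.409 (0.369 to 0.453). Rela, which encodes the transactivating subunit p65, lay between 51 and 79.3 CPM in all 5 classes. Its macrophage/monocyte ratio was 1.26 (1.15 to 1.39). Relb, the partner of p52 in the non-canonical pathway, had ratios of 1.18 in neutrophils, 1.19 in macrophages and monocytes and 1.17 in fibroblasts, and the neutrophil one was as low as 0.975 over the alternatives. Its T/NK ratio was 0.703 (0.532 to 0.914), at 181 and 127 CPM.

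Counted by class, 0 of the 10 genes were higher by 1.5-fold or more in any class. In neutrophils 2 were lower, Tnf and Traf1, beside 7.41% of all genes tested there lower and 21.5% higher (14% and 10.1% with TMM scaling). The neutrophil count was 1, Tnf alone, with the stricter cell filter or in cells with at least 4000 UMIs. In macrophages and monocytes 1 was lower, Tnf, beside 4.51% lower and 15.8% higher (7.58% and 7.95% with TMM scaling), and 2 with either other scaling. In fibroblasts 1 was lower, Tnf, beside 6.16% lower and 9.49% higher (7.79% and 7.73%). In endothelial cells 3 were lower, Tnf, Tnfrsf1b and Traf1, beside 7.1% lower and 9.7% higher (8.51% and 7.3%). In T/NK cells 4 were lower, Tnf, Tnfrsf1a, Nfkbia and Nfkb1, beside 17.1% lower and 19.9% higher (24% and 12.7%).

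The class makeup differed between the libraries for T/NK cells. Cluster 3, led by Trdv4, Il17a and Trdc, genes of interleukin 17-producing γδ T cells, held 215 of the 332 young and 3 of the 45 aged T/NK cells, and cluster 17 held 115 and 42. Within cluster 17 the Tnf ratio was 0.0592 (0.0120 to 0.177) on 119 and 3 UMIs, the Nfkbia ratio was 0.541 (0.483 to 0.606) and the Nfkb1 ratio 0.605 (0.532 to 0.687). The ratios of the other 7 genes there lay between 0.901 and 1.10, with intervals that included 1. Cluster 17 itself differed between the libraries, with Ly6c2 at 59.2 and 318 CPM and the neutrophil marker S100a8 on 133 and 9 UMIs. The part of these differences in the ratios of cluster 17 was not tested. Leaving out the 10 highest cells takes 10 of only 45 aged cells but 10 of 332 young ones. The aged levels are lowered more by the way the cells are taken. The ratios after it, 0.217 for Nfkbia and 0.222 for Nfkb1, are therefore not read as a result.

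The endothelial class was small, and markers of other classes differed in it. The summed level of the T/NK markers was 389 CPM in young and 35.4 CPM in aged endothelial cells, that of the neutrophil markers 385 and 108 CPM, and that of the fibroblast markers 669 and 400 CPM. At the median endothelial cell the T/NK markers were at 0 in both libraries. Young endothelial cells also held 258 Il17a and 307 Trdc UMIs, and aged ones 0 of either. The part of RNA from other classes in the endothelial ratios of Tnf, Traf1 and Tnfrsf1b was not tested. Nor was its part in the endothelial counts and ratios of the pathway lists below. Without the cells of highest doublet score the endothelial ratios were 0.578 for Traf1 and 0.582 for Tnfrsf1b. The Tnf ratio there was 0.809 with a gate margin of 2, which is within 1.5-fold, 0.356 as a mean of per-cell levels and 0.215 with classes taken from clusters, and no aged UMI was left without the 10 highest cells.

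Within neutrophils the Tnf ratio was under 1 at every depth and in every cluster examined, groupings that were added after the data were seen. It was 0.30 in cells under 4000 UMIs, 0.461 from 4000 to under 8000 UMIs and 0.482 at 8000 UMIs or more. The Traf1 ratio was 0.641, 0.626 and 0.720 in the same strata. Nfkbia was at 0.582, 0.899 and 0.974 and Tnfaip3 at 0.834, 1.22 and 1.34, so both ratios were lowest in the shallowest cells. The makeup of the class by cluster differed. Of the young and aged neutrophils, cluster 7 held 639 and 277, cluster 8 held 278 and 314, cluster 0 held 311 and 78, and cluster 9 held 106 and 277.

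Cluster 7, led by Il23a and formed with these 10 genes left out, had the most Tnf, at 4302 and 2819 CPM, a ratio of 0.655 (0.631 to 0.680). There Tnfaip3, Nfkb1 and Relb were higher by 1.5-fold or more in the aged library, and Tnf and Tnfrsf1a were lower by as much. The share of all genes past 1.5-fold was not counted within the cluster, and in the whole neutrophil class it was 21.5% higher and 7.41% lower. No other scaling was run within clusters, and TMM scaling moved the median of all genes in the whole neutrophil class by -0.27 on the log2 scale. Whether these genes stay past 1.5-fold under another scaling is not known, so their number is not read as a result. Tnfaip3 was at 1132 and 1793 CPM (ratio 1.58, 1.504 to 1.67), Nfkb1 had a ratio of 1.60 (1.54 to 1.67) and Relb 1.78 (1.53 to 2.07). Nfkbia had a ratio of 1.17 (1.15 to 1.20), Tnfrsf1b 1.42 (1.34 to 1.51), Birc3 1.12 (1.04 to 1.21), Rela 1.07 (0.835 to 1.37) and Traf1 0.952 (0.887 to 1.02). Tnfrsf1a was lower there, at 0.602 (0.403 to 0.875). In clusters 0, 8 and 9 the Tnf ratios were 0.158, 0.296 and 0.578, those of Traf1 were 0.462, 0.529 and 0.495, and those of Nfkbia were 0.671, 0.792 and 0.659. Scaled to their own totals, the clusters joined in the neutrophil class thus had Nfkbia and Nfkb1 ratios on both sides of 1.

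**Figure D4:**
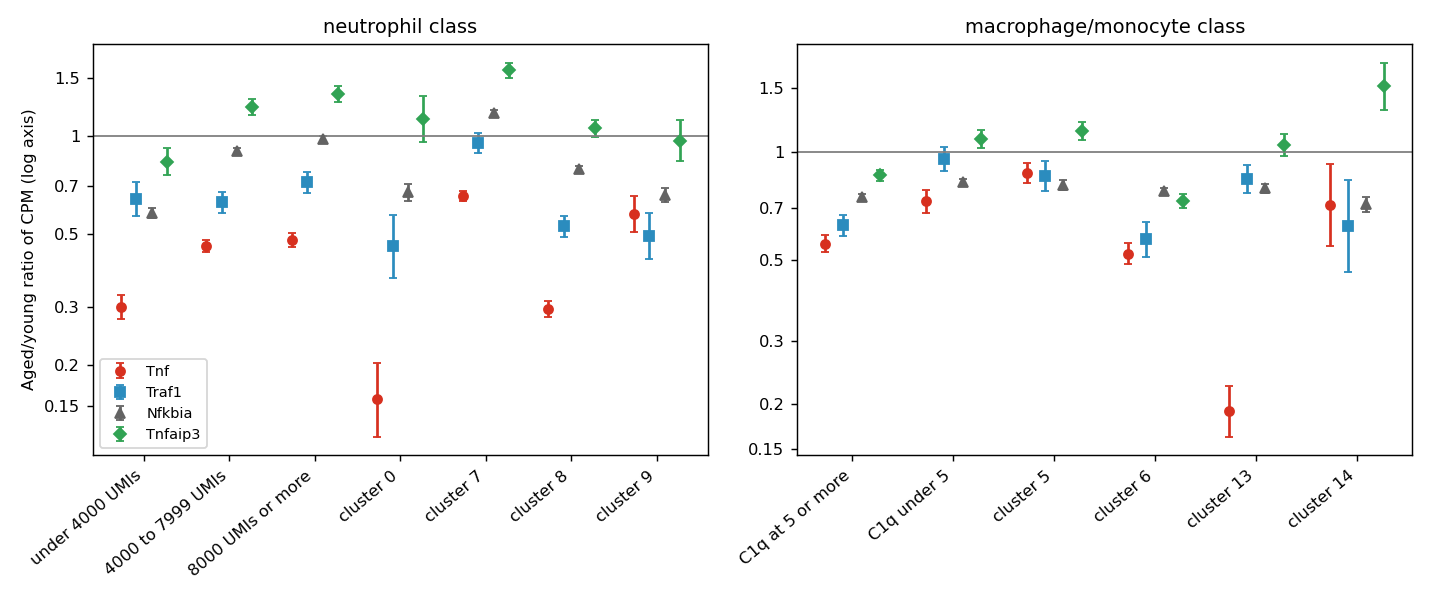
Aged/young ratio of CPM (log axis) of Tnf, Traf1, Nfkbia and Tnfaip3 within depth strata and clusters of neutrophils (left) and C1q strata and clusters of macrophages and monocytes (right), with counting intervals (95%). Tnf lies under 1 throughout, from 0.158 to 0.872, while Tnfaip3 reaches 1.58 in neutrophil cluster 7. No other scaling was run on these strata and clusters.

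Macrophages and monocytes were split by C1q, complement genes of mature macrophages, at 5 UMIs per 10000, with 62 young and 94 aged cells near that value. The Tnf ratio was 0.557 (0.529 to 0.586) in C1q-high and 0.729 (0.678 to 0.783) in C1q-low cells. The Traf1 ratio was 0.626 (0.585 to 0.670) and 0.955 (0.882 to 1.03). By cluster the Tnf ratio was 0.872 in cluster 5, led by Mmp12, 0.522 in cluster 6, led by Cbr2 and C1qa, 0.712 in cluster 14, led by Arg1, and 0.191 in cluster 13, led by Cd74 and Ly6c2. Nfkbia lay between 0.715 and 0.809 in these 4 clusters. In cluster 5 the ratios of Nfkb1, Relb and Birc3 were 1.35, 1.41 and 1.40. Birc3 was at 1.56 (1.43 to 1.71) in cluster 13. Tnfaip3 was at 1.52 (1.31 to 1.76) in cluster 14 but 0.731 in cluster 6, and Traf1 was at 0.572 in cluster 6 and 0.624 in cluster 14. The share of all genes past 1.5-fold was not counted within these clusters, and no other scaling was run there. In the whole class that share was 15.8% higher and 4.51% lower.

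Cells with and without a Tnf UMI were then compared within a library, after thinning to 2000 UMIs. In young neutrophils 5 of the other 9 genes were higher by 1.5-fold or more in the 872 cells with a Tnf UMI than in the 445 without, and 1 was lower, beside 7.61% of genes tested higher and 29.3% lower. In aged neutrophils the counts were also 5 and 1, for 391 and 499 cells, beside 6.87% and 22.4%. Tnfaip3 was 2.43-fold higher (2.17 to 2.72) in young and 2.65-fold higher (2.38 to 2.94) in aged cells with a Tnf UMI. Nfkbia was 1.78-fold and 2.34-fold higher, Nfkb1 1.87-fold and 1.85-fold, Tnfrsf1b 1.504-fold and 1.68-fold, and Traf1 1.57-fold and 2.49-fold. Tnfrsf1a was the gene lower in these cells, with ratios of 0.521 (0.402 to 0.674) and 0.507 (0.342 to 0.737). Whether the libraries differed in these ratios was not tested. Clusters were not held apart in this comparison. Young neutrophils of cluster 7 had 4302 CPM of Tnf and those of cluster 0 had 1116 CPM. Tnfaip3 was at 1132 and 432 CPM in these clusters and Tnfrsf1a at 45.8 and 153 CPM. The part of cluster makeup in the ratios was not tested.

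Macrophages and monocytes were compared in the same way. Cells with a Tnf UMI numbered 265 young and 228 aged. In young cells 3 of the 9 genes were higher and 0 lower, beside 6.25% and 14.3% of genes tested. Tnfaip3 had a ratio of 1.68, Tnfrsf1b 1.67 and Nfkb1 1.60. In aged cells only Tnfaip3 was past 1.5-fold, at 1.59, so 1 was higher and 0 lower beside 5.2% and 14.9%. The chemokine gene Ccl3 was higher in cells with a Tnf UMI in all 4 comparisons, with ratios of 2.42 and 1.96 in young and aged neutrophils and 3.35 and 3.38 in macrophages and monocytes. Fos and Jun, immediate early genes that digestion of tissue can induce, were at 0.331 and 0.670 in young and 0.533 and 0.905 in aged neutrophils with a Tnf UMI, and Atf3, of the same kind, at 0.797 and 1.05. In young and aged macrophages and monocytes Fos was at 0.693 and 0.804, Jun at 0.649 and 0.741 and Atf3 at 1.68 and 1.37. The part of these genes in the result was not tested.

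**Figure D5:**
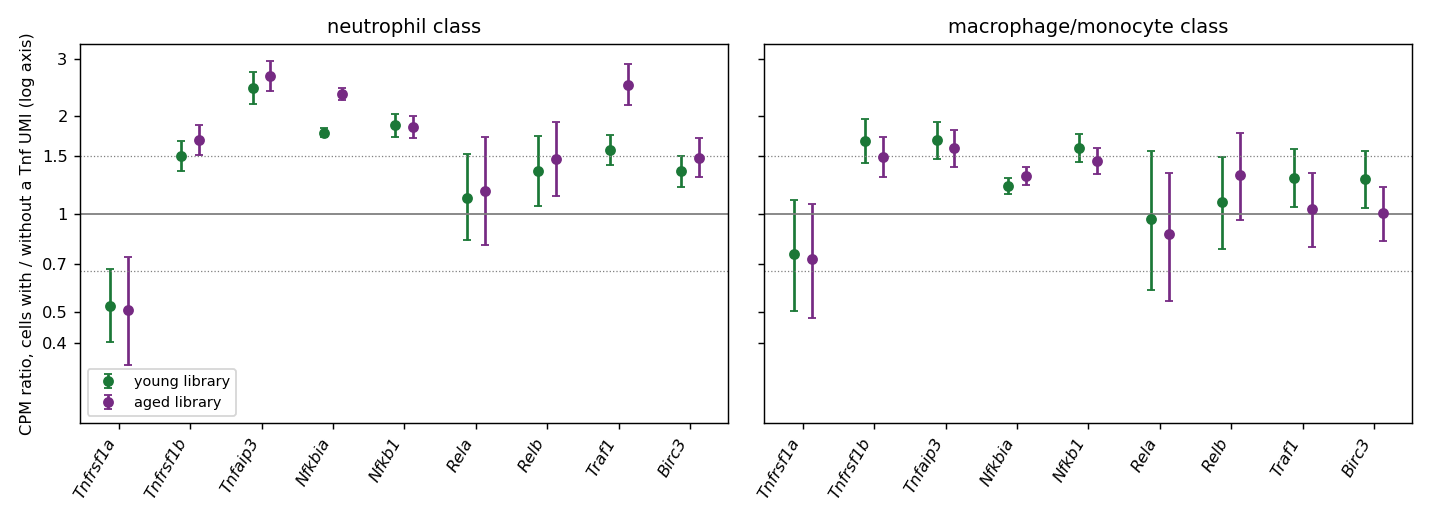
Ratio of CPM (log axis) of the other 9 genes in cells with against cells without a Tnf UMI, all thinned to 2000 UMIs, within each library, with counting intervals (95%) and dotted lines at 1.5-fold. In neutrophils (left) Tnfaip3 stands at 2.43 and 2.65 and Tnfrsf1a at 0.521 and 0.507, and in macrophages and monocytes (right) Tnfaip3 stands at 1.68 and 1.59.

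The rest of the pathway was described by fixed lists of 114 genes, counted among those with at least 50 UMIs in a class. The receptor complex and IKK kinase list, the machinery between receptor and NF-κB, was mostly within 1.5-fold. Of its tested genes, 0 of 23 over all cells (beside 8.96% of all genes higher and 8.73% lower) and 0 of 23 in fibroblasts (9.49% and 6.16%) were past 1.5-fold either way. In neutrophils 0 of 20 were higher and 2 lower (21.5% and 7.41%), in T/NK cells 1 of 17 and 1 (19.9% and 17.1%), and in endothelial cells 1 of 19 and 2 (9.7% and 7.1%). Macrophages and monocytes had 2 of 23 higher and 1 lower (15.8% and 4.51%), and Map3k14, the kinase NIK of the non-canonical pathway, was among the former at 16.5 and 31.8 CPM (ratio 1.93). Of the other feedback inhibitors, 2 of 11 were higher and 0 lower in macrophages and monocytes (15.8% and 4.51%), so the higher count was near the share of all genes. Tnip3, a partner of A20, was at 261 and 455 CPM there (ratio 1.74). The counts were 1 of 11 higher and 2 lower in neutrophils (21.5% and 7.41%) and 1 of 10 and 2 in T/NK cells (19.9% and 17.1%). They were 0 of 11 and 0 in fibroblasts (9.49% and 6.16%) and 1 of 11 and 1 in endothelial cells (9.7% and 7.1%).

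NF-κB target genes were counted in the same way, and the shares of all genes called in each class are those given with the counts of the 10 genes. In macrophages and monocytes 18 of 32 tested were lower and 1 higher, beside 4.51% and 15.8% of all genes, with a median log2 ratio of -0.64 beside 0.22 for all genes. In neutrophils 9 of 31 were lower and 4 higher, beside 7.41% and 21.5% (median -0.21 beside 0.22). In endothelial cells they were 13 of 30 and 4, beside 7.1% and 9.7% (median -0.49 beside 0.10). In fibroblasts 12 of 33 were lower and 4 higher, beside 6.16% and 9.49% (median -0.15 beside 0.09). In T/NK cells they were 19 of 25 and 2, beside 17.1% and 19.9% (median -1.45 beside 0.08). The lists were chosen with earlier results of these data known, so these counts are no independent evidence of a direction.

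Named by rule, the lowest target ratios in macrophages and monocytes were those of Mmp9, a matrix protease, at 148 and 24.1 CPM (0.163), and Ccl5, a T cell chemokine, at 224 and 37.6 CPM (0.168). Mmp9 was also among the leading genes of cluster 24, which held 28 young and 13 aged cells of the class, and its part in the ratio was not tested. In neutrophils they were Mmp3 (0.217), the monocyte chemokine Ccl2, at 672 and 193 CPM (0.287), and the growth factor gene Csf2 (0.30). In fibroblasts Cxcl10, an interferon-induced chemokine, was higher, at 285 and 797 CPM (2.79), as was Ccl20 (3.85) on 1.51 and 5.8 CPM. In endothelial cells Vcam1, an adhesion molecule, was at 259 and 691 CPM (2.67), Il1a at 34.2 and 103 CPM (2.999), and Ccl4 at 235 and 47.4 CPM (0.202). The part of RNA from other classes in these endothelial values was not tested. In T/NK cells Il1a had 388 young UMIs and no aged UMI, Cxcl2 had a ratio of 0.04675 and Csf3 0.0355, while Ccl5 was higher at 2.09. The neutrophil markers S100a8 (230 and 9 UMIs) and S100a9 (146 and 3 UMIs) were also lower there, and cluster 3 held 215 young and 3 aged cells of the class. The part of neutrophil RNA and of class makeup in the T/NK target counts and ratios was not tested.

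Among the other TNF superfamily ligands, lymphotoxin beta (Ltb) was lower over all cells, at 31.6 and 4.13 CPM (0.131), as were Lta (0.0940) and Cd40lg (0.0483), all genes of lymphocytes. Tnfsf4 was higher over all cells, at 1.33 and 3.01 CPM (2.26), Tnfsf14 in macrophages and monocytes (2.14), Tnfsf13b in neutrophils (3.02), Fasl in T/NK cells (2.94) and Tnfsf10 in fibroblasts (2.89). Of the other receptors, Tnfrsf22 was higher in neutrophils (2.28) and Tnfrsf9 lower in endothelial cells (0.235, on 306 and 68 UMIs). The part of T/NK cell RNA in the Tnfrsf9 ratio was not tested.

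Genes that tissue digestion can induce were counted beside these. In fibroblasts 9 of 18 were lower and 0 higher, beside 6.16% and 9.49% of all genes, with Hspa1b at 152 and 43.9 CPM (0.289) and Hspa1a at 135 and 41.8 CPM (0.310). In T/NK cells 9 of 17 were lower and 1 higher, beside 17.1% and 19.9%. In neutrophils 4 of 18 were lower and 2 higher, beside 7.41% and 21.5%, with Fosb at 90.9 and 230 CPM (2.53). In endothelial cells 4 of 18 were lower and 0 higher, beside 7.1% and 9.7%. None of the 18 was past 1.5-fold in macrophages and monocytes. Their part in the ratios of Nfkbia and Tnfaip3 was not tested.

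For each of the 10 genes, the 3 most alike in pattern were taken by Pearson's r over 10 points (5 classes in 2 libraries, which share libraries and depth) among 11248 candidate genes. For Tnf these were Zc3h12a, the RNase Regnase-1 (0.979), the chemokine-binding receptor Ccrl2 (0.978) and Ccl3 (0.975). Tnfrsf1b was most like Ptpn6, the phosphatase SHP-1 (0.990), Ebi3 (0.987) and Il10ra (0.986), and Traf1 most like Rbm38 (0.988), Slc38a1 (0.983) and Arhgap25 (0.978). Tnfaip3 was most like Nherf1 (0.989), Nfkbia most like Rab9 (0.955), Relb most like Ddx5 (0.974) and Birc3 most like Ppp1r3b (0.974). Tnfrsf1a was most like Acvrl1 (0.974), Rela most like Gramd1a (0.922) and Nfkb1 most like Ston2, with the lowest top value of the 10 (0.888).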

How the data were processed

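The deposited matrices hold raw UMI counts for every gene in every barcode. The authors made these counts, per the file headers, with version 8.0.1 of Cell Ranger. Version 9.0, Seurat 4 and the build GRCm38 (mm10) stand in the submitters' processing notes. Counts were read with Python 3.11.15 and scanpy 1.11.5. Cells with at least 500 UMIs and 200 genes and under 15% mitochondrial UMIs were kept. A cell joined a class when at least 3 of its markers were detected and its marker score was at least 1.5 times the next. Scrublet marked 0.0644% of young and 0.0475% of aged cells, which means that it did not work, so doublets were not removed. As an alternative, the 169 young and 155 aged cells of highest score were left out.

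UMIs were summed per class and library and divided by the class total. Intervals are exact (Poisson for levels, conditional binomial for ratios, Clopper-Pearson for shares). A gene was tested with at least 50 UMIs in a class and called at 1.5-fold or more, with no p-value. TMM factors came from edgeR 4.0.16. The counting scripts were tested on simulated data. The members and lists were chosen with earlier results of these data known. Named list genes are the 3 highest and 3 lowest ratios past 1.5-fold per class. Alternatives were another scaling, per-cell means, cell filters, clusters in place of gates, and leaving out the 10 cells per class and library with the most UMIs of a gene. A gate margin of 2, cells with at least 4000 UMIs and the strata were chosen after seeing the data.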

Additional observations from a re-analysis of the deposited data

Results flagged for a closer look

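For 5 genes the aged library was above the young one in some cell classes and below it in others, with counting intervals that left out 1 and the same side under both other scalings, and the difference between classes was not tested. Tnfrsf1a was at 1.28 in endothelial cells and 0.847 in neutrophils. Tnfaip3 was at 1.23 in neutrophils and 1.09 in fibroblasts, against 0.935 in macrophages and monocytes, 0.877 in T/NK cells and 0.836 in endothelial cells. Nfkb1 was at 1.07 in fibroblasts, against 0.409 in T/NK cells and 0.807 in endothelial cells. The endothelial ratio of Nfkb1 was 1.16 as a mean of per-cell levels and that of Tnfaip3 was 1.029 without the highest doublet scores, so both turned. Over the alternatives the Tnfaip3 ratio was as low as 1.015 in neutrophils and 1.026 in fibroblasts. That of Nfkb1 in fibroblasts was as low as 1.007, and that of Relb in macrophages and monocytes 1.008. Thinned shares of neutrophils with a Tnfaip3 UMI went the other way, at 61.9% in young and 57.6% in aged cells. Relb was at 1.19 in macrophages and monocytes and 1.17 in fibroblasts, against 0.703 in T/NK cells. Birc3 was at 1.26 both in macrophages and monocytes and in T/NK cells, against 0.790 in neutrophils, and the T/NK ratio was 0.657 without the 10 cells with the most Birc3 UMIs in each library.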

How the results depend on the processing

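No result changed its called direction under the alternatives run. Of the main results 149 alternative values stayed within the counting interval, or within 1.5 times for a count, and 30 did not, and of the other results 424 did and 155 did not. The main results pool Tnf ratios and shares with counts of genes past 1.5-fold, and a count of 0 that stayed 0 is tallied as unchanged. The tally therefore does not measure how stable the Tnf ratios were. The values that follow for them are those that left the counting interval. The Tnf ratio over all cells, 0.306, was 0.2835 with TMM scaling, 0.2857 with median-of-ratios scaling, 0.3837 as a mean of per-cell levels, 0.3143 without the highest doublet scores, 0.2916 without the 10 highest cells and 0.2971 in cells with at least 4000 UMIs. The neutrophil Tnf ratio, 0.451, was 0.3738, 0.3777 and 0.4105 under the same scalings and per-cell mean, 0.3999 without the 10 highest cells, 0.4323 with a gate margin of 2 and 0.4992 with at least 4000 UMIs. The macrophage/monocyte Tnf ratio, 0.609, was 0.5335, 0.527 and 0.5623 under those 3 and 0.5757 with clusters. At aged class shares the Tnf ratio was 0.5109. The aged/young ratio of the share of neutrophils with a Tnf UMI was 0.5832 when thinned to 1000 UMIs. The number of genes lower in neutrophils was 1 with the stricter filter, with at least 4000 UMIs or at 2-fold. In macrophages and monocytes it was 2 with either scaling or clusters and 0 at 2-fold, and in endothelial cells 1 at 2-fold. For T/NK cells it was 8 without the 10 highest cells, a setting that takes 10 of 45 aged but 10 of 332 young cells. No share of all genes was counted in that setting, so the 8 is not read as a result. Thinned to 1000 UMIs, macrophages and monocytes with a Tnf UMI had 2 genes higher and 1 lower in the aged library and 4 higher and 2 lower in the young one. The genes lower were young Tnfrsf1a and Rela, on 9 and 8 UMIs in cells with a Tnf UMI, and aged Rela, on 7. Their intervals (0.231 to 1.08, 0.264 to 1.40 and 0.254 to 1.43) all included 1. No paired analysis was possible because there was 1 library per age and the labels carry no replicate numbers. The aged T/NK and endothelial values rest on 45 and 50 cells, with 3 and 32 Tnf UMIs.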
